A study of Mus musculus with 3 samples.

Results

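Chemokine ligands are small secreted proteins that steer the movement of leukocytes and other cells through G protein-coupled receptors. The genes described here are the mouse features whose symbol begins with Ccl, Cxcl or Cx3cl, followed by a number and at most 1 further letter. They comprised 43 of 31053 mouse features and 38 symbols, because 5 symbols were each carried by 2 features, a chromosomal or scaffold copy of the same name. Some chemokines, such as Cxcl12 and Cxcl14, are made in resting tissue, where they position cells, whereas others, such as Ccl2, Cxcl1 and Cxcl10, are induced when cells sense injury, microbes or cytokines. In the bladder wall, urothelium, fibroblasts, vessels and resident macrophages can each be a source, and neutrophils and monocytes drawn by these ligands are a first defence against urinary infection. Atypical receptors of the same family bind ligands without classical signalling and so limit their local amount.

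Single-cell RNA sequencing with a 3′ tag assay had been done on 3 libraries, 1 per group. Assembloids, multicellular constructs reconstituted in culture, were sampled 7 days after reconstitution began, as a pool of 3, and after 1 day, likewise as a pool of 3. Adult bladder came from wild-type C57BL/6 mice aged 8 to 9 weeks, as a pool of 8 organs. The labels of the assembloids give neither a strain nor the cells they were built from. With 1 library per group no test between groups was possible, and cells of a library are not replicates. Every interval in brackets is a 95% interval that covers counting error only.

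The 7-day, 1-day and bladder libraries held 120301672, 135955678 and 93560608 UMIs (unique molecular identifiers, each counting 1 captured RNA molecule). After filtering they kept 8146, 8239 and 6753 mouse cells, with medians of 9437.5, 14952 and 7543 UMIs. Cells were put into 5 classes by the summed UMIs of marker genes, and the median cell of each class had more UMIs of its own list than of the other lists, except that lymphatic cells, which carry both endothelial lists, had more of the general one at 1 day. The 7-day, 1-day and bladder libraries held 2102, 1422 and 2683 urothelial cells, 4677, 5560 and 2475 stromal cells, 750, 321 and 861 endothelial cells, 121, 35 and 206 lymphatic endothelial cells and 75, 81 and 48 myeloid cells. Levels are given as CPM, in which the UMIs of a gene, summed over a class, are scaled to a common total of all mouse genes. A 3′ tag is counted once per molecule whatever the transcript's length, so no length correction was made.

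Most cells of the 7-day library were of 2 kinds. Among the 30 nearest cells of the other libraries, 4348 of its cells (53.4%) had at most 5% bladder cells, and 3553 (43.6%) had at least 95%. The first kind, called assembloid-side here, had a median of 19924 UMIs, and the second, called bladder-side, had 3367. A further 245 cells lay between, with a median of 1463 UMIs, among them 41 of the 121 lymphatic and 14 of the 75 myeloid cells. These count in all 7-day values and in neither kind; bladder-side and between cells are together called bladder-near. The neighbour space was built without the chemokine ligands. Only 30 barcodes occurred in both the 7-day and the bladder library, while 114 occurred in both the 7-day and the 1-day library, and a shared barcode was kept only where it had more UMIs. The origin of the bladder-side cells was not tested, and 7-day levels of the members are therefore given with those of assembloid-side cells, while cluster levels and shares of UMIs by gene cover all 7-day cells.

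In stromal, endothelial, lymphatic and myeloid cells some chemokine ligands were higher and others lower in the assembloids than in bladder. In urothelial cells the 2 members that reached 20 CPM were lower or not apart. The summed level of all members in stromal cells was 879 CPM [873, 886] at 7 days (858 CPM in assembloid-side cells), 452 CPM [448, 456] at 1 day and 1442 CPM [1422, 1463] in bladder. In endothelial cells the sum was 1500.3 CPM at 7 days (1852 CPM in assembloid-side cells), 2452 CPM at 1 day and 912 CPM in bladder. Stroma was thus lower and endothelium higher in the assembloids than in bladder. Lymphatic endothelial cells summed to 3948 CPM at 7 days, with 1991 CPM in assembloid-side cells, to 456 CPM at 1 day and to 8422 CPM in bladder. Myeloid cells summed to 3360 CPM at 7 days (3079 CPM in assembloid-side cells), 2831 CPM at 1 day and 4686 CPM in bladder. Urothelial cells had the lowest sums, with 119 CPM at 7 days, 62.0 CPM in assembloid-side cells, 62.5 CPM at 1 day and 119 CPM in bladder.

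**Figure D1:**
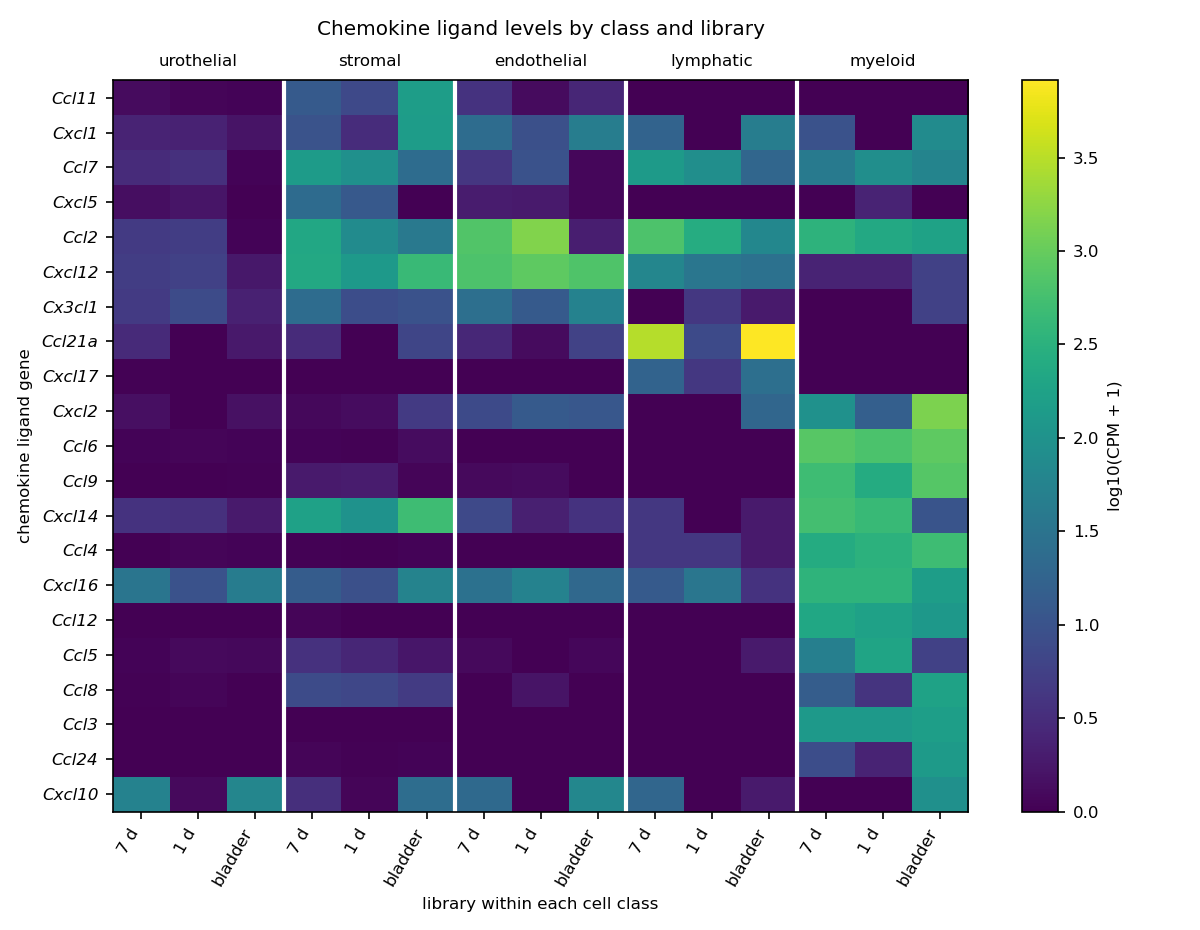
Levels of the 21 chemokine ligand features that reached 20 CPM in a class, as log10(CPM + 1), in the 7-day, 1-day and bladder library (left to right) of each of 5 cell classes. Myeloid cells hold the most members at high levels, and Ccl21a in lymphatic endothelial cells of bladder (8191 CPM) is the highest value.

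A few members made up most of the total in stromal, endothelial and lymphatic cells. In stromal cells Cxcl12, Ccl2, Cxcl14 and Ccl7 made up 26.4%, 25.5%, 19.9% and 15.6% of chemokine ligand UMIs at 7 days. At 1 day Cxcl12, Cxcl14, Ccl7 and Ccl2 made up 28.0%, 21.4%, 20.3% and 17.0%. In bladder stroma the leading members were Cxcl14 (34.5%), Cxcl12 (30.8%), Ccl11 (10.3%) and Cxcl1 (9.91%). Assembloid stroma thus had a pair of monocyte attractants among its 4 leading members, and bladder stroma an eosinophil and a neutrophil attractant. In endothelial cells Ccl2 and Cxcl12 together made up 91.2% at 7 days and 95.7% at 1 day, against 75.5% for Cxcl12 alone in bladder. Lymphatic endothelial cells of bladder were almost wholly accounted for by Ccl21a (97.3%). Urothelial cells were led by Cxcl10 and Cxcl16 at 7 days (44.5% and 26.8%) and in bladder (51.2% and 36.1%). At 1 day Cxcl15 led them with 24.4%, and Cxcl15, Cxcl16 and Ccl25 together made up 50.8%. Myeloid totals were spread more widely, with 50.4% for Ccl6, Cxcl14 and Cxcl16 together at 1 day.

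**Figure D2:**
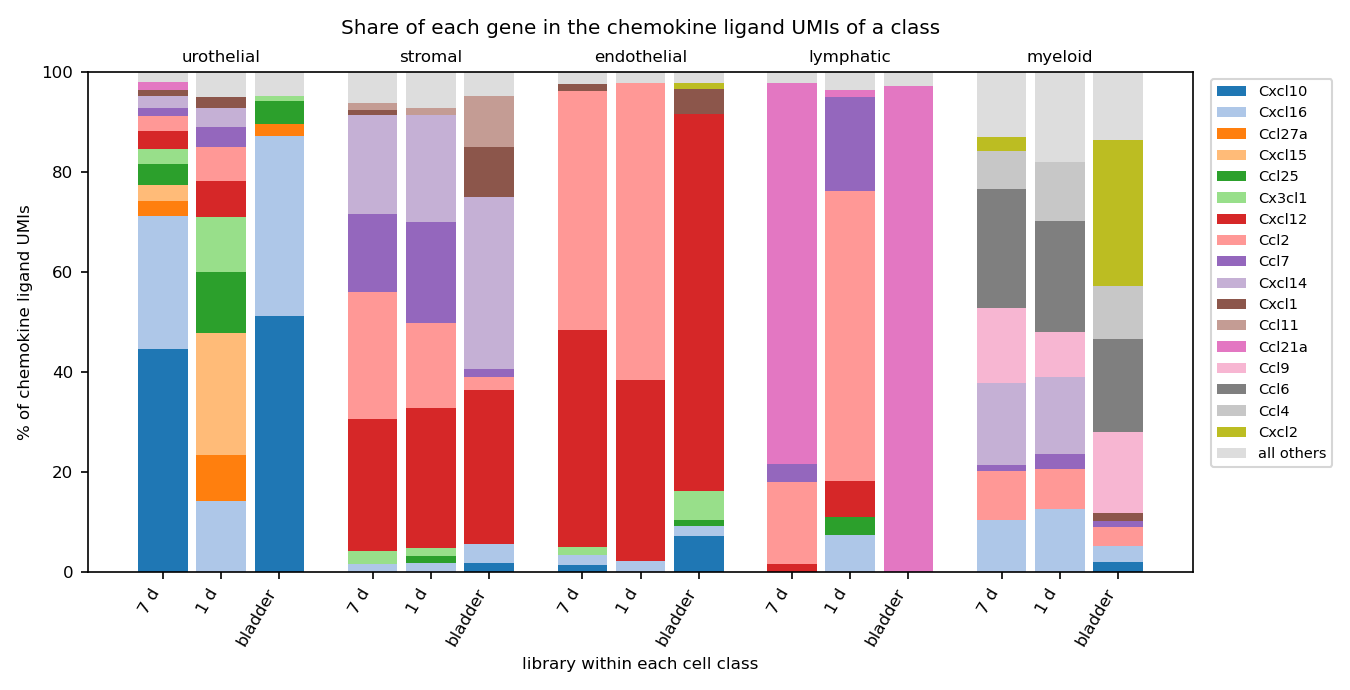
Share of each gene in the chemokine ligand UMIs of a class, for the 7-day, 1-day and bladder library (left to right) in each class. Genes that reach 9% in some bar have a colour, and all other genes, together with coloured genes where under 1%, are grey. Ccl2 takes 47.7% of the endothelial bar at 7 days and 59.6% at 1 day, and Ccl21a takes 97.3% of the lymphatic bar of bladder.

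A member was counted as higher or lower where it differed at least 2-fold, reached 20 CPM in the higher library and had a counting interval of the ratio that excluded 1. The same rule was applied to all mouse features of the same cells as a background. Members that reach 20 CPM in 1 library alone enter through the library where they are higher. These counts thus describe the members and support nothing about them as a set. The libraries of the 3 comparisons are shared between them.

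In stromal cells 2 members (Ccl2 and Cx3cl1) were higher and 0 lower at 7 days than at 1 day, of 6 that reached the minimum, where 1.58% and 0.0711% of all features were higher and lower. At 7 days against bladder 4 were higher and 5 lower of 10, beside 15.4% and 19.1% of all features. At 1 day against bladder 2 were higher and 6 lower of 8, beside 17.3% and 21.3%. In assembloid-side cells the counts were 3 higher and 0 lower than at 1 day (background 0.683% and 0.0719%) and 4 higher and 5 lower than in bladder (16.1% and 19.7%).

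In endothelial cells 3 members were higher and 1 lower at 7 days than at 1 day, of 6, where 10.3% and 3.04% of all features were. Assembloid-side cells gave 0 of 3 in either direction (background 1.87% and 1.16%). Against bladder, 1 was higher and 2 lower of 6 at 7 days (13.2% and 9.59%), 1 higher and 3 lower in assembloid-side cells (22.2% and 20.5%), and 2 higher and 3 lower at 1 day (25.2% and 22.7%). None of the 4 endothelial members counted between 7 days and 1 day was thus counted once the bladder-near cells were left out.

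In urothelial cells both members that reached the minimum, Cxcl10 and Cxcl16, were higher at 7 days than at 1 day (background 4.31% higher, 3.56% lower). Neither was counted at 7 days against bladder (1.05% and 0.0396%), and both were lower at 1 day than in bladder (10% and 6.86%). In assembloid-side cells neither reached 20 CPM on either side of the comparison with 1 day (0.0544% and 0% of features), and both were lower than in bladder (9.75% and 6.83%).

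In lymphatic endothelial cells 2 members were higher and 0 lower of 5 at 7 days than at 1 day (6.08% and 4.17% of features), 3 were higher and 2 lower of 6 at 7 days than in bladder (8.42% and 8.1%), and 3 were higher and 3 lower of 7 at 1 day than in bladder (14.7% and 14.7%). Assembloid-side cells, only 17 in this class, gave 3 higher and 0 lower than at 1 day (3.16% and 3.6%) and 3 higher and 2 lower than in bladder (14.8% and 15.9%). In myeloid cells 2 were higher and 2 lower of 11 at 7 days than at 1 day (2.13% and 1.42%), 3 were higher and 5 lower of 15 at 7 days than in bladder (13.3% and 15.7%), and 3 were higher and 6 lower of 15 at 1 day than in bladder (13.9% and 18.2%). The 44 assembloid-side myeloid cells gave 0 higher and 2 lower than at 1 day (0.985% and 1.52%) and 2 higher and 5 lower than in bladder (14.7% and 17.3%).

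Urothelial, stromal and endothelial bladder-side cells of the 7-day library differed little from bladder in the members that reached 20 CPM. Myeloid ones differed more. Bladder-side cells were chosen by their likeness to bladder in the other genes, so likeness here follows in part from that choice. Urothelial, stromal and endothelial bladder-side cells gave 0 members counted in either direction against bladder, where 0% and 0.0205%, 0.0167% and 0.0668%, and 0.0672% and 0.252% of features were higher and lower in the same order of classes. The 63 lymphatic ones gave 1 higher member, Cxcl10, with 10 UMIs against 1 (1.7% of features higher, 1.43% lower). The 17 myeloid ones gave 1 higher and 4 lower (2.1% and 1.38%), on sums of at most 39 UMIs per member. The higher one was Ccl5, at 436 CPM from 15 UMIs in 2 cells, against 4.78 CPM from 1 UMI in bladder, and the lower ones were Cxcl2, Ccl24, Ccl12 and Ccl8. Some levels under 20 CPM did differ. Ccl2 in endothelial bladder-side cells was at 10.1 CPM [5.52, 17.0], against 1.12 CPM [0.409, 2.43] in bladder endothelium. With each cell thinned to 2500 UMIs, 0.919% of urothelial bladder-side cells had a Ccl2 UMI and 0.778% a Ccl7 UMI. In bladder urothelium these shares were 0.0378% and 0%.

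**Figure D3:**
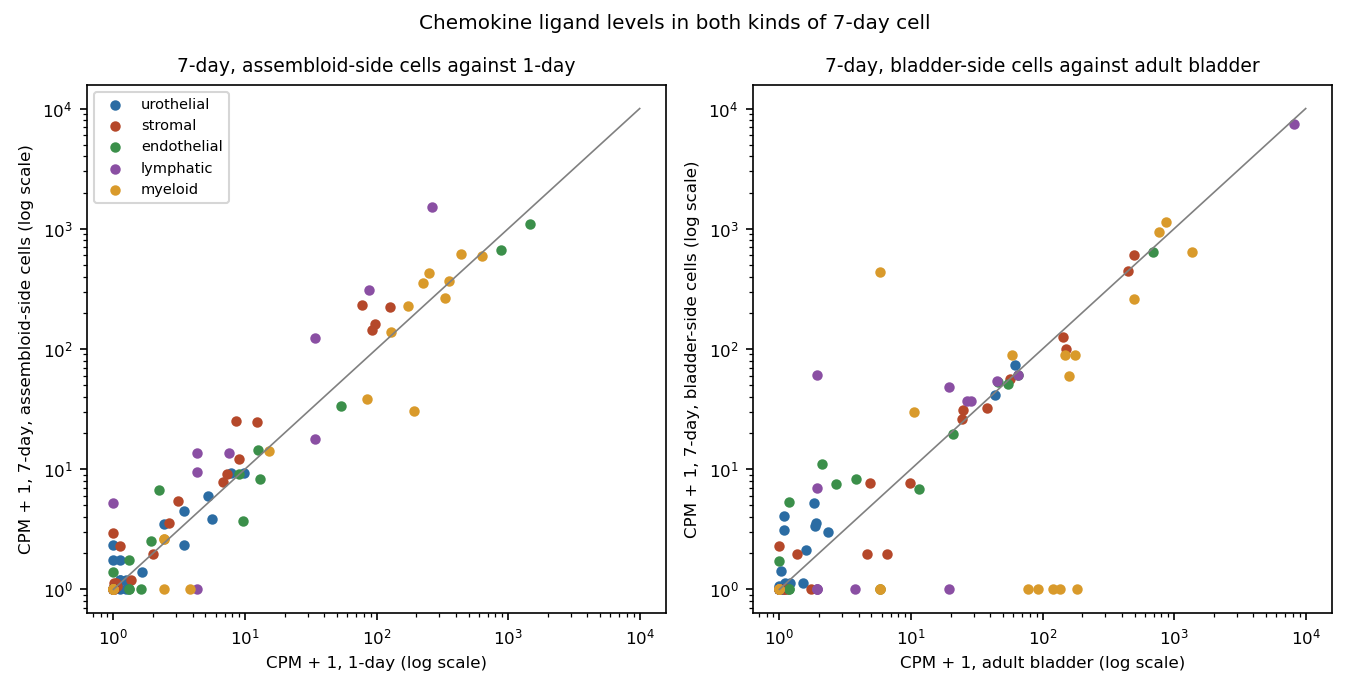
Level of each of the 21 features in each class, as CPM + 1 on log axes, in assembloid-side 7-day cells against 1-day cells (left) and in bladder-side 7-day cells against bladder (right); the line marks equal levels. Ccl21a of lymphatic cells is the top right point of the right panel (7490 CPM against 8191 CPM), and the points on the horizontal axis are members with 0 UMIs in the few bladder-side cells.

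Among the monocyte attractants, Ccl2, the main ligand of Ccr2, had the largest log2 ratio over bladder in endothelium. In endothelial cells it was at 716 CPM at 7 days, with 1100.3 CPM in assembloid-side cells, at 1461 CPM at 1 day and at 1.12 CPM, from 6 UMIs in 3 cells, in bladder. The log2 ratio over bladder was 9.21 [8.20, 10.77] at 7 days and 10.24 [9.23, 11.80] at 1 day. Assembloid endothelium was thus high for Ccl2 in both libraries and bladder endothelium close to empty of it. After each cell was thinned to 2500 UMIs, 20.8% of endothelial cells had a Ccl2 UMI at 7 days (39.4% of assembloid-side cells), 56.2% at 1 day and 0.402% in bladder. In urothelial cells, the class taken as background for this gene, the shares were 0.840%, 1.28% and 0.0378%, at medians of 8339.5, 4831 and 21328 UMIs before thinning. Thinning left out 269, 13 and 115 endothelial cells of the 7-day, 1-day and bladder library, and the unthinned endothelial shares were 18.4%, 67.6% and 0.348%.

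Stromal marker UMIs were also higher in assembloid endothelium, with a median of 13.3 per 10000 UMIs at 7 days, 24.8 at 1 day and 6.16 in bladder. The level of Ccl2 in 1-day endothelium (1461 CPM) was above that in 1-day stroma (76.8 CPM), and Ccl7, at 91.7 CPM in that stroma, was at 8.59 CPM in the endothelium. Cluster 12 (leading genes Ctla2a, Apln and Emcn) held 257 of the 750 endothelial cells at 7 days, at 1099 CPM of Ccl2, and 312 of 321 at 1 day, at 1474 CPM, whereas bladder endothelium lay in clusters 16, 19 and 20 at 0.497, 0 and 1.28 CPM.

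In stromal cells Ccl2 was at 224 CPM [221, 227] at 7 days (232 CPM in assembloid-side cells), 76.8 CPM [75.1, 78.4] at 1 day and 36.6 CPM [33.4, 39.96] in bladder. The 3 levels did not overlap in their counting intervals, and the log2 ratios were 1.55 for 7 days over 1 day, 2.61 for 7 days over bladder and 1.07 for 1 day over bladder. Ccl7, a close neighbour of Ccl2 that also draws monocytes, was at 137 CPM at 7 days (142 CPM in assembloid-side cells), 91.7 CPM at 1 day and 23.4 CPM in bladder. Its log2 ratio over bladder was 2.55 at 7 days and 1.97 at 1 day. Stroma held 97.99%, 96.5% and 87.0% of all Ccl7 UMIs of the 7-day, 1-day and bladder library.

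Both genes lie in a run of 6 CC chemokine genes on chromosome 11 (mm10, 82035571 to 82305690), with Ccl11, Ccl12, Ccl8 and Ccl1. In thinned stromal cells at 7 days, Ccl7 was detected in 43.3% of cells with Ccl2 and in 10.0% of the rest. At 1 day the shares were 42.7% and 11.0%, and in bladder 15.6% and 2.18%. Ccl7 was thus found more often in cells with Ccl2 than in the rest in all 3 libraries, as a description of cells that share a library. Among 7-day stromal clusters Ccl2 was highest in cluster 0 (482 CPM; leading genes include Mmp3 and Sfrp1) and close to it in cluster 15 (478 CPM; Bmp4, Cck and Aard). Cluster 17 (Car3 and Rbp4), where bladder cells also lay, was lowest at 7.06 CPM.

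In lymphatic endothelial cells Ccl2 was at 649 CPM at 7 days (1503 CPM in the 17 assembloid-side cells), 264 CPM at 1 day and 64.1 CPM in bladder. At 7 days a single cell held 25.2% of those UMIs. Ccl7 followed the same order there, with 137 CPM at 7 days (307 CPM in assembloid-side cells), 85.9 CPM at 1 day and 18.3 CPM in bladder. Stromal marker UMIs of these lymphatic cells had medians of 11.8, 33.8 and 7.00 per 10000 at 7 days, at 1 day and in bladder, and their part in these levels was not tested. Myeloid cells had Ccl2 at 332 CPM at 7 days (349.6 CPM in assembloid-side cells), 226 CPM at 1 day and 177 CPM in bladder, with no call in any comparison. Their Ccl7 was at 39.3 CPM at 7 days (37.6 CPM in assembloid-side cells), 84.0 CPM at 1 day and 57.4 CPM in bladder. It was counted lower at 7 days than at 1 day (log2 -1.08). Ccl12, a further mouse ligand of Ccr2, was found in myeloid cells at 217 CPM at 7 days (225 CPM in assembloid-side cells), 174 CPM at 1 day and 120 CPM in bladder, the last from 25 UMIs of 6 cells. Ccl8, a relative in the same run, was at 13.1 CPM, 2.85 CPM and 182 CPM in myeloid cells at 7 days, at 1 day and in bladder. Assembloid-side cells had 0 UMIs of it, and the bladder value came from 3 cells, 1 of which held 73.7% of its UMIs. Most Ccl8 UMIs lay in stroma instead. It held 594 of 621 at 7 days, 628 of 1104 at 1 day and 52 of 90 in bladder.

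Neutrophil attractants, the ligands of Cxcr2, went the opposite way in stroma, except for Cxcl5. Cxcl1 in stromal cells was at 9.14 CPM at 7 days (4.42 CPM in assembloid-side cells), 2.10 CPM at 1 day and 143 CPM [137, 149] in bladder, with log2 ratios over bladder of -3.97 at 7 days and -6.09 at 1 day. Cxcl5 was at 22.6 CPM at 7 days (23.5 CPM in assembloid-side cells), 11.4 CPM at 1 day and 0 CPM in bladder. With a floor of 3 counts for bladder stroma, Cxcl5 was at least 101-fold higher at 7 days than in bladder. Among the 7-day stromal clusters it was highest in cluster 0, at 69.9 CPM, and 0 of 2164 thinned bladder stromal cells had a UMI, which, with the same floor of 3 counts, allows a share of cells with a UMI of up to 0.139%.

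Cxcl2, a neutrophil attractant of activated myeloid cells, was at 96.1 CPM in myeloid cells at 7 days, 14.2 CPM at 1 day and 1372 CPM in bladder. In assembloid-side cells it was at 13.1 CPM, with a log2 ratio over 1 day of -0.11, against 2.70 for all 7-day cells. Of the 66 Cxcl2 UMIs of 7-day myeloid cells 8 lay in assembloid-side, 22 in bladder-side and 36 in between cells. The bladder value came from 287 UMIs in 17 of 48 cells. Cxcl1 in myeloid cells was at 8.73 CPM at 7 days (0 UMIs in assembloid-side cells), 0 CPM at 1 day and 76.5 CPM in bladder, where 1 cell held 87.5% of the 16 UMIs. In endothelial cells Cxcl1 was at 23.0 CPM at 7 days (8.03 CPM in assembloid-side cells), 7.97 CPM at 1 day and 45.0 CPM in bladder.

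Cxcl1, Cxcl2 and Cxcl5 lie within 146.6 kb of chromosome 5 with Cxcl3 and Cxcl15. Cxcl2 and Cxcl3 share an identical run of 110 bases in their transcripts, so reads there could have been split between them or dropped, and Cxcl3 reached only 14.3 CPM. The promoters of Cxcl1 and Cxcl2 are shown with that of the interferon-inducible Cxcl10. These 3 genes, among others, were lower in 1-day assembloids than in bladder, in stromal, myeloid and urothelial cells in turn. RefSeq (GRCm38.p6) gave a promoter for 26 of the 38 symbols. Those without one, among them Ccl2, Ccl7, Cxcl5, Ccl11 and Cxcl16, were not searched, so most members higher in the assembloids are not covered. The 300 bases around each start were searched for the kappaB motif bound by NF-kB (GGGA, any 2 bases, TTCC), the interferon-response motif (GAAA, any 2 bases, GAAA), both on either strand, and TATAAA on the forward strand. The 250 bases before the start are printed 5′ to 3′ on the gene's strand, with kappaB and interferon-response matches in capitals. They lie at chr5:90890995-90891244 (Cxcl1, plus strand), chr5:90903649-90903898 (Cxcl2, plus strand) and chr5:92348890-92349139 (Cxcl10, minus strand).
Cxcl1: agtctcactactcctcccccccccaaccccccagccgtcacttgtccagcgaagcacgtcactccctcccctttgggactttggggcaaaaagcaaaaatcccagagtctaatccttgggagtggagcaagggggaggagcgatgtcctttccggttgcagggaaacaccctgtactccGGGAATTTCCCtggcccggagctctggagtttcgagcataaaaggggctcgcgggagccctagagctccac
Cxcl2: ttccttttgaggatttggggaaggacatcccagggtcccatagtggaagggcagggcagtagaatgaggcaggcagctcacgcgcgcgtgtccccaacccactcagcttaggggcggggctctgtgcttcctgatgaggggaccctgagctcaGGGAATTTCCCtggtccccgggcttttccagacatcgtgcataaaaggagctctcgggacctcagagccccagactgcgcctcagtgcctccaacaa
Cxcl10: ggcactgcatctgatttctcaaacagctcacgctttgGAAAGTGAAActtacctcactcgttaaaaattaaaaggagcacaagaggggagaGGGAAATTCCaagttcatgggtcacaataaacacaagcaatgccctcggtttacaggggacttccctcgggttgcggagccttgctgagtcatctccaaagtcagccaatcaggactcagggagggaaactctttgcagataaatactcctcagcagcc
In Cxcl1 and Cxcl2 the capitals are 1 site. The kappaB motif matches it on each strand, 1 base apart, the first match beginning 71 and 97 bases before the start. In Cxcl10 the first run of capitals is the interferon-response match, 213 bases before the start, and the second is the kappaB match, 159 bases before it. The kappaB motif was found for 5 of the 26 symbols, also in Cxcl3 and Ccl1. This was 5 of their 32 promoters, beside 1.467% of all 32851 promoters. The interferon-response motif was found for 3 symbols, also in Cxcl14 and Ccl19, in 3 of the 32 promoters, beside 3.443% of all promoters. TATAAA was found for 9 of the 26 symbols, in 9 of the 32 promoters, beside 8.319%. Cxcl12, Cxcl14, Ccl21a, Cx3cl1, Ccl8 and Ccl9, also lower at 1 day than in bladder in some class, had no kappaB match. A match describes the letters and is not evidence of binding.

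Genes that NF-kB is known to induce were read beside these ligands from a list of 22. In myeloid cells 12 of the 16 that reached the minimum were lower than in bladder and 0 higher at 7 days (median log2 -2.51, against 0.04 over all features, of which 15.7% were lower). The counts were the same at 1 day (median -3.42, against 0.05 over all features, of which 18.2% were lower). The inhibitor gene Nfkbia was at 132 CPM at 7 days (94.7 CPM in assembloid-side cells), 105 CPM at 1 day and 1014 CPM in bladder myeloid cells. In stromal cells 2 were higher and 5 lower of 12 at 7 days, beside 15.4% and 19.1% of all features, and 2 higher and 6 lower at 1 day, beside 17.3% and 21.3%. The cytokine gene Il6 was at 11.4 CPM at 7 days (9.06 CPM in assembloid-side cells), 10.6 CPM at 1 day and 114 CPM in bladder stroma. Immediate early genes, which respond within minutes to stimulation and also to tissue dissociation, were lower than in bladder stroma in 12 of 12 cases at both times, where 19.1% of all features were lower at 7 days and 21.3% at 1 day. Their stromal sum was 1724 CPM at 7 days (1176 CPM in assembloid-side cells), 904 CPM at 1 day and 16096 CPM in bladder. The part of dissociation in the ligand levels was not tested.

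The eosinophil attractant Ccl11 behaved like Cxcl1 in stroma. It was at 12.0 CPM at 7 days (8.19 CPM in assembloid-side cells), 6.34 CPM at 1 day and 149 CPM [142, 156] in bladder, with log2 ratios over bladder of -3.63 and -4.55. In thinned stromal cells 2.52% had a Ccl11 UMI at 7 days (2.04% of assembloid-side cells), 0.973% at 1 day and 16.8% in bladder. In bladder, 47.5% of thinned stromal cells with Cxcl1 also had Ccl11, against 11.8% of the rest.

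Bladder stroma was a mixture, and both genes were concentrated in 1 part of it. The cells in which the pericyte markers led (431 cells) had Ccl11 at 786 CPM and Cxcl1 at 605 CPM. The 1422 cells in which the fibroblast markers led had 56.7 CPM and 63.6 CPM, and the 622 muscle-led cells 75.4 CPM and 120 CPM. Set against the fibroblast-led cells alone, Ccl11 and Cxcl1 were still lower at 7 days (log2 -2.24 and -2.80) and at 1 day (-3.16 and -4.92). Ccl2 was likewise highest in pericyte-led cells, at 132 CPM, against 28.9 CPM in fibroblast-led cells. Each list had been divided by its mean over bladder stroma before the lists were compared, a rule set after the data were seen.

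**Figure D4:**
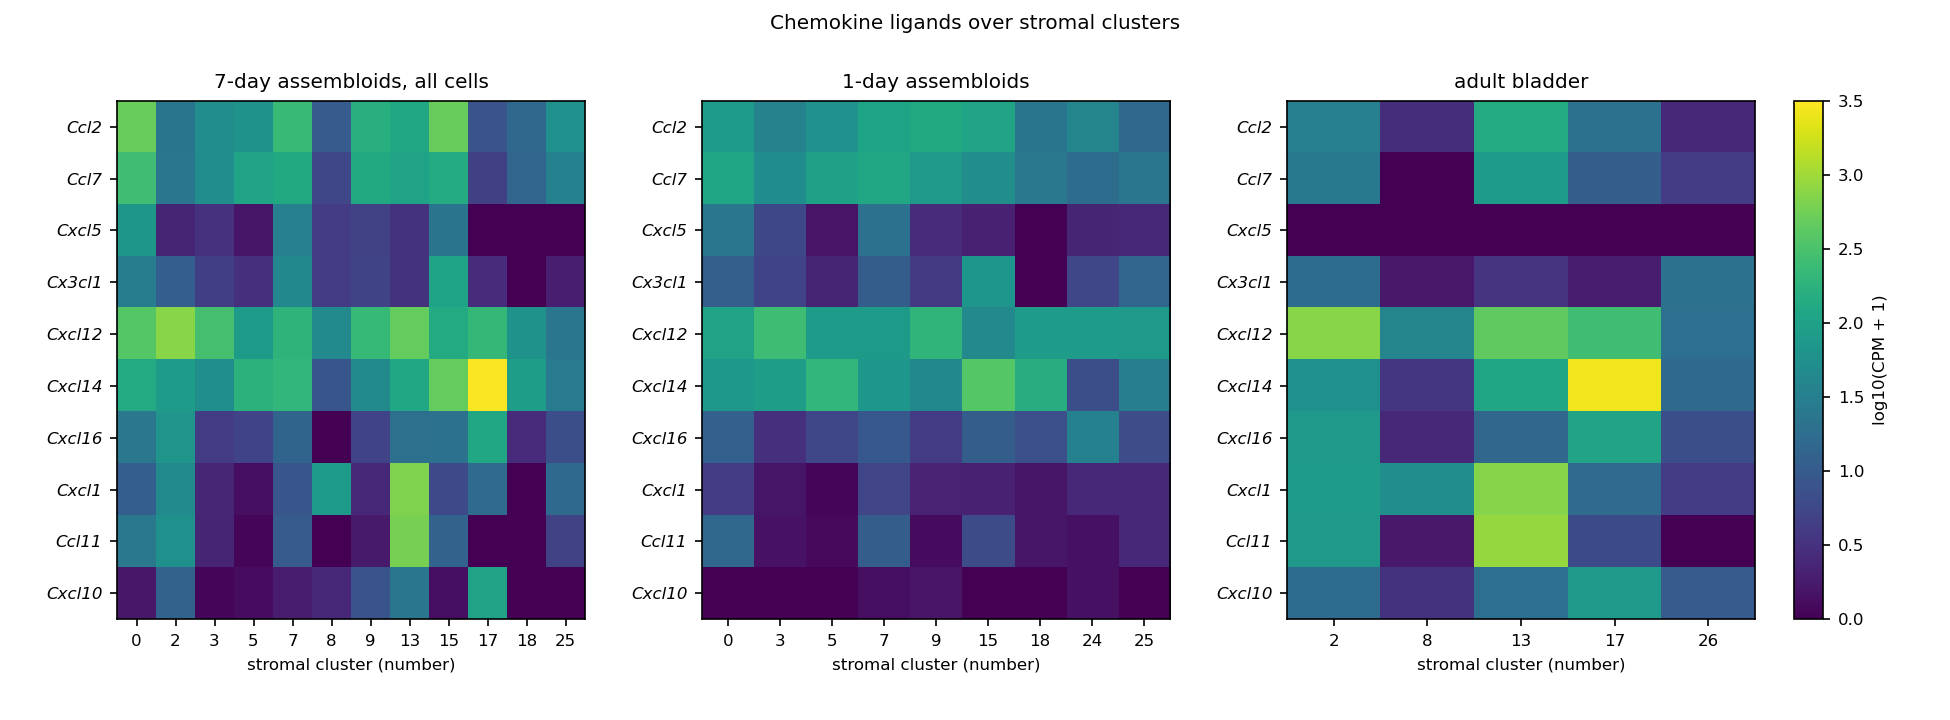
Levels of 10 chemokine ligands, as log10(CPM + 1), over stromal clusters of the 7-day (left), 1-day (middle) and bladder (right) library, each column a cluster by its number. Ccl11 and Cxcl1 peak in cluster 13 (Rgs5) of bladder at 882 CPM and 723 CPM, and Ccl2 peaks in cluster 0 at 7 days at 482 CPM.

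Ccl24, another eosinophil attractant, was found in myeloid cells at 7.28 CPM at 7 days (1.63 CPM in assembloid-side cells), 1.42 CPM at 1 day and 134 CPM in bladder, the last from 28 UMIs of 6 cells.

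Of the ligands made in resting tissue, Cxcl12, which acts through Cxcr4, was at 232 CPM in stroma at 7 days (224 CPM in assembloid-side cells), 126 CPM at 1 day and 445 CPM in bladder. Against all bladder stroma only the 1-day level was more than 2-fold lower (log2 -1.81), but the 7-day level was also more than 2-fold below the 613 CPM of fibroblast-led bladder cells. Endothelial cells differed less than 2-fold, with 652 CPM at 7 days (668 CPM in assembloid-side cells), 885 CPM at 1 day and 689 CPM in bladder. Within bladder endothelium it ranged widely, at 1827 CPM in cluster 20 (Fabp4, Ly6c1 and Cd36), 377 CPM in cluster 19 and 84.5 CPM in cluster 16 (Selp, Aqp1 and Lrg1). In bladder stroma pericyte-led cells had 329 CPM and muscle-led cells 98.2 CPM.

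Cxcl14, a ligand with no settled receptor that is abundant in fibroblasts and epithelia, had summed levels that moved in opposite directions in stromal and myeloid cells. In stroma it was at 175 CPM at 7 days (159 CPM in assembloid-side cells), 96.7 CPM at 1 day and 498 CPM in bladder, with log2 ratios over bladder of -1.51 and -2.36. In myeloid cells it was at 552 CPM at 7 days (618 CPM in assembloid-side cells), 438 CPM at 1 day and 9.56 CPM in bladder, from 379, 308 and 2 UMIs. The myeloid log2 ratio over bladder was 5.53 [3.99, 8.90] at 7 days and 5.20 [3.65, 8.57] at 1 day. After thinning, 70.0% of myeloid cells at 7 days (79.5% of assembloid-side cells), 57.9% at 1 day and 2.70% in bladder had a Cxcl14 UMI. Stromal marker UMIs of these myeloid cells had medians of 5.38, 8.21 and 2.38 per 10000 at 7 days, at 1 day and in bladder. The myeloid level exceeded that of the whole stroma of the same assembloids. The highest stromal cluster was at 3011 CPM at 7 days (cluster 17) and at 376 CPM at 1 day (cluster 15). The part of stromal RNA in the myeloid level was not tested. Bladder stromal Cxcl14 was concentrated in cluster 17, at 2638 CPM, against 55.4, 2.59 and 112 CPM in clusters 2, 8 and 13. Of thinned stromal cells, 14.9% at 7 days (14.2% of assembloid-side cells), 8.54% at 1 day and 12.8% in bladder had a Cxcl14 UMI. The share of stromal cells with Cxcl14 was thus not lower at 7 days than in bladder.

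Ccl21a, which guides Ccr7-bearing dendritic cells and lymphocytes into lymphatic vessels, had the highest level of all members. Lymphatic endothelial cells had it at 3017 CPM at 7 days, 6.61 CPM at 1 day and 8191 CPM [8022, 8363] in bladder. Assembloid-side cells at 7 days had 12.6 CPM, from 3 UMIs in 17 cells, and bladder-side cells 7490 CPM. Assembloid-side 7-day cells and 1-day cells were thus low, whereas the 7-day class as a whole was not. The 1-day value rested on 2 UMIs and gave a log2 ratio over bladder of -9.95 [-13.3, -8.42]. The median of lymphatic marker UMIs was 74.6 per 10000 at 7 days, 40.4 at 1 day and 91.5 in bladder, so the 1-day cells also had fewer of the markers that named them. After thinning, 57.1% of lymphatic cells at 7 days (6.25% of 16 assembloid-side cells), 2.86% of 35 at 1 day and 89.8% in bladder had a Ccl21a UMI, against 0.214%, 0% and 0.508% of stromal cells. Ccl21a shares an identical transcript run of 208 bases with Ccl21b, so its count is uncertain where reads could not be placed. Cxcl17, a mucosal chemokine, was also found mainly in lymphatic cells, at 16.9 CPM at 7 days (12.6 CPM in assembloid-side cells), 3.30 CPM at 1 day and 25.7 CPM in bladder, from 10, 1 and 28 UMIs.

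**Figure D5:**
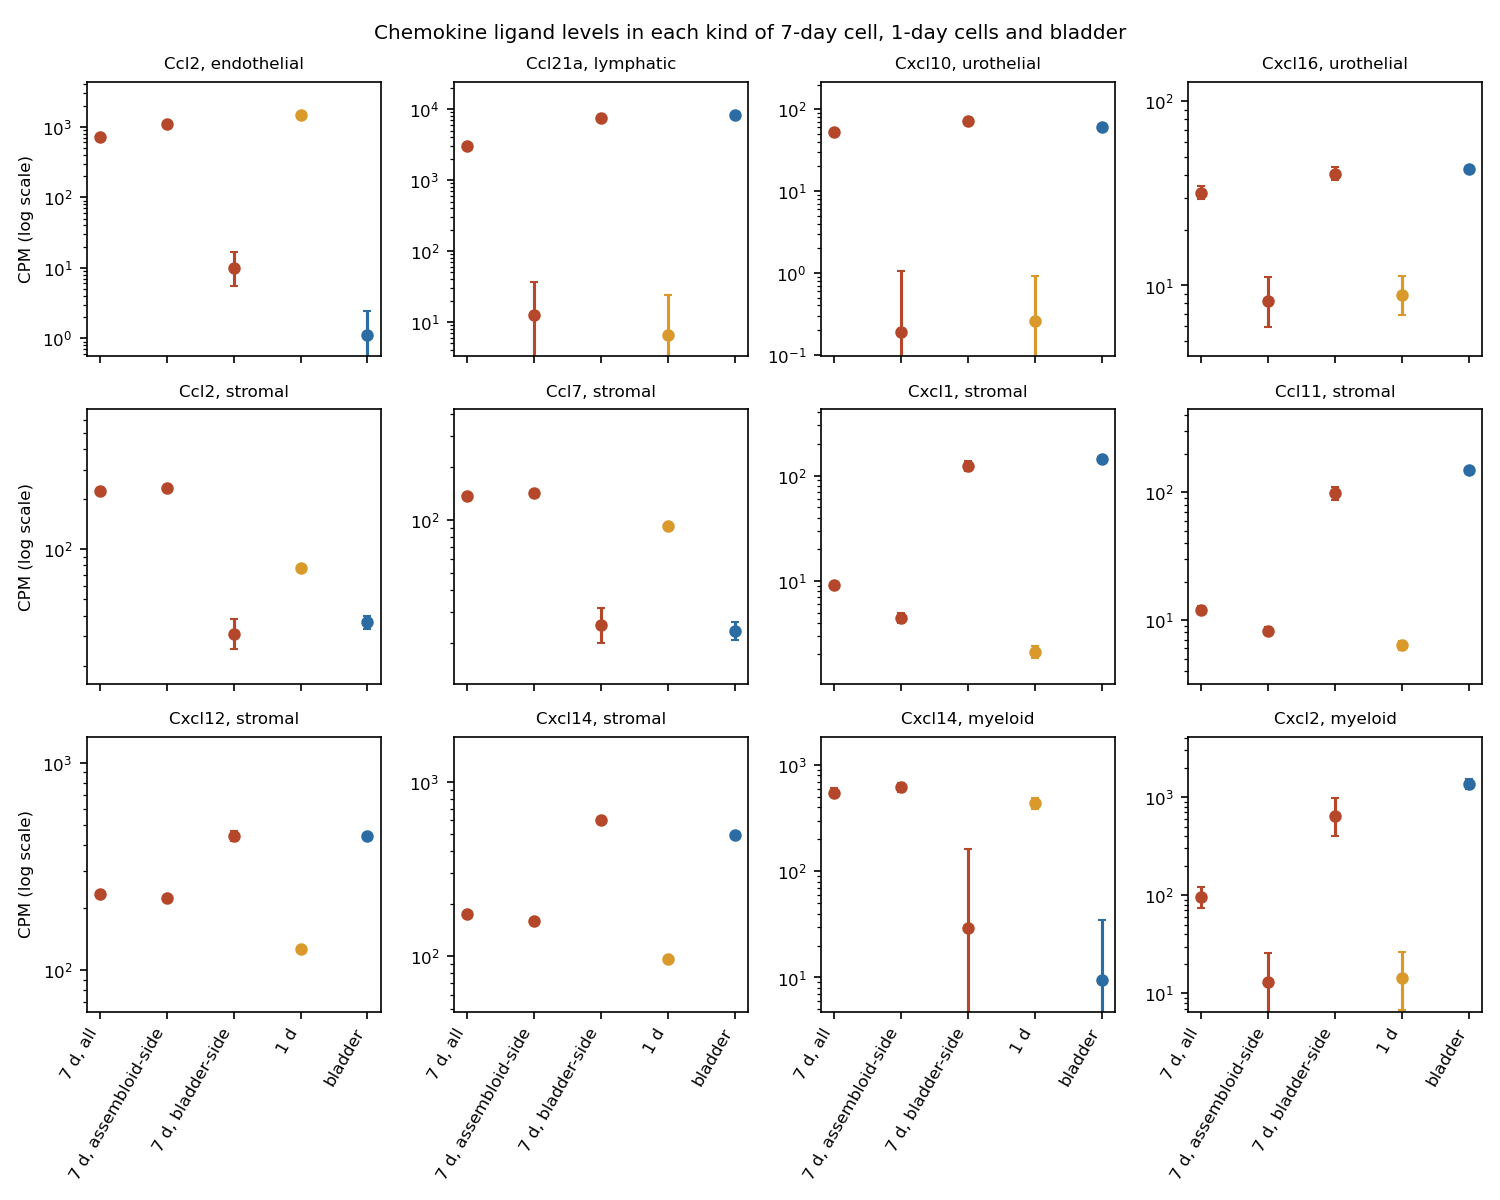
Level (CPM, log axis) of 12 pairs of ligand and class in all 7-day cells, assembloid-side and bladder-side 7-day cells, 1-day cells and bladder (left to right); bars are 95% Poisson intervals, cut at the axis where they reach lower. In each panel assembloid-side cells lie nearer to 1-day cells and bladder-side cells nearer to bladder, as for Ccl21a at 12.6 and 7490 CPM. Both kinds were chosen by their nearest cells in the other genes, so this likeness follows in part from that choice.

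The membrane-bound ligands Cx3cl1 and Cxcl16, which can be shed or hold cells at a surface, differed in direction between classes. Cx3cl1 was at 23.5 CPM in stroma at 7 days (24.2 CPM in assembloid-side cells), 7.50 CPM at 1 day and 8.77 CPM in bladder, highest in cluster 15 at 106 CPM. Against fibroblast-led bladder cells the 7-day difference fell just under 2-fold (log2 0.98). In endothelium it was at 26.3 CPM at 7 days (13.4 CPM in assembloid-side cells), 11.7 CPM at 1 day and 53.7 CPM in bladder.

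Cxcl16 in urothelial cells was at 32.0 CPM at 7 days (8.25 CPM in assembloid-side cells), 8.84 CPM at 1 day and 42.8 CPM in bladder. Within bladder urothelium it was at 62.2 CPM in cluster 1 (Areg, Krt23 and Ivl) and 12.9 CPM in cluster 11 (Krt15, Igfbp2 and Krt5). In stroma Cxcl16 was at 12.8 CPM at 7 days (11.2 CPM in assembloid-side cells), 7.97 CPM at 1 day and 55.2 CPM in bladder. Myeloid cells had the reverse order against bladder, with 346 CPM at 7 days (368 CPM in assembloid-side cells), 356 CPM at 1 day and 148 CPM in bladder, and so did endothelial cells at 1 day, with 53.0 CPM against 19.7 CPM in bladder.

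Cxcl10, an interferon-inducible ligand of Cxcr3 that draws activated T cells, was the leading urothelial chemokine of bladder. Urothelial cells had it at 53.1 CPM at 7 days, 0.256 CPM (2 UMIs) at 1 day and 60.8 CPM [58.9, 62.7] in bladder. In assembloid-side 7-day cells it was at 0.192 CPM, from 1 UMI, and 1050 of the 1052 UMIs at 7 days lay in bladder-side cells. The 1-day cells lay mostly in clusters 4 and 14 (956 and 435 cells) and bladder urothelium in clusters 1, 6 and 11 (1429, 800 and 448 cells), so different clusters are set against each other. Stromal marker UMIs of urothelial cells had medians of 4.53, 12.2 and 1.35 per 10000 at 7 days, at 1 day and in bladder, and their part was not tested. The log2 ratio of 1 day over bladder was -7.57 [-10.9, -6.04]. Of 1332 thinned urothelial cells at 1 day 0 had a Cxcl10 UMI, which by the floor of 3 counts allows a share of cells with a UMI of up to 0.225%, against 8.40% in bladder. In endothelium Cxcl10 was at 20.6 CPM at 7 days (0 UMIs in assembloid-side cells), 0 UMIs at 1 day and 64.2 CPM in bladder, and with a floor of 3 counts for 1-day endothelium it was at least 69.7-fold lower at 1 day than in bladder. In stroma it was at 2.34 CPM at 7 days (1.29 CPM in assembloid-side cells), 0.128 CPM at 1 day and 23.9 CPM in bladder. Myeloid cells had 0 UMIs at both times and 19 UMIs from 4 cells in bladder.

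Interferon-induced genes from a list of 16 were read beside Cxcl10. In endothelium 13 of 14 that reached the minimum were lower at 1 day than in bladder (median log2 -4.48, against 0.15 over all features, of which 22.7% were lower), with a sum of 439 CPM at 1 day and 2358 CPM in bladder. Isg15, an interferon-induced ubiquitin-like protein gene, was at 148 CPM at 7 days (15.7 CPM in assembloid-side cells), 13.2 CPM at 1 day and 408 CPM in bladder endothelium. In stroma 7 of 7 were lower than in bladder at both times, beside 19.1% of all features at 7 days and 21.3% at 1 day. In urothelium only 2 reached the minimum, of which 1, Psmb8, was lower at 1 day than in bladder.

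The remaining myeloid ligands, apart from Ccl5, changed less. Ccl6 and Ccl9 are CC chemokines found in rodents. Ccl6 led the myeloid total in both assembloid libraries and was at 796 CPM at 7 days (598 CPM in assembloid-side cells), 633 CPM at 1 day and 870 CPM in bladder. Ccl9 was at 505 CPM at 7 days (430 CPM in assembloid-side cells), 251 CPM at 1 day and 760 CPM in bladder, and only the 1-day level was more than 2-fold below bladder (log2 -1.60). Ccl3 and Ccl4, which draw monocytes and T cells, gave no call in any comparison. Ccl3 was at 129.6 CPM at 7 days (137 CPM in assembloid-side cells), 127 CPM at 1 day and 158 CPM in bladder. Ccl4 was at 255 CPM at 7 days (266 CPM in assembloid-side cells), 330.2 CPM at 1 day and 497 CPM in bladder. In thinned 1-day myeloid cells Ccl4 was detected in 13 of 16 cells with Ccl3.

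Ccl5, a ligand typical of T and NK cells, was at 48.0 CPM in myeloid cells at 7 days (29.4 CPM in assembloid-side cells), 191 CPM at 1 day and 4.78 CPM, from 1 UMI, in bladder. Of the 542 Ccl5 UMIs at 7 days, 221 lay in stroma, 33 in myeloid cells and 153 in 5 cells classed as lymphocytes. At 1 day stroma held 177 of 314 and myeloid cells 134. Bladder held 1273 Ccl5 UMIs in all, of which 989 were in the 364 cells that passed for several classes and 241 in 6 cells classed as lymphocytes.

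The other 22 features stayed under 20 CPM in every class. Of these 15 had a UMI in some kept cell. Ccl25 reached 16.5 CPM in 1-day lymphatic cells (5 UMIs), Cxcl15 reached 15.3 CPM in 1-day urothelium, and Ccl19 and Cxcl13, ligands that organise lymphoid tissue, each reached 13.5 CPM in bladder stroma. Ccl27a reached 11.9 CPM in bladder stroma and Ccl21c 10.1 CPM in bladder lymphatic cells. Ccl22, Ccl17, Cxcl9, Ccl20 and Ccl28 had their highest levels at 7.28, 4.42, 3.35, 1.64 and 0.307 CPM. Cxcl13 in stroma was at 0.536 CPM at 7 days (0.0729 CPM in assembloid-side cells), 0 CPM at 1 day and 13.5 CPM in bladder. No UMI was counted in the 5 classes for 9 features, among them Ccl1, Ccl26, Ccl27b, Ccl21b and scaffold copies of Ccl21a, Ccl21c and Ccl27, and 7 of these had none in any kept cell.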

How the data were processed

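Dissociated cells had been captured with the 10x Genomics 3′ kit, version 3, per the labels' protocols. The deposited matrices hold UMI counts per feature and barcode, whole numbers with no normalization, made by the authors with Cell Ranger 3.1.0 per the file headers. The builds GRCh38 and mm10 are named in the submitters' processing notes, and the annotation release is not given in the sources used here. The features of a combined human and mouse reference were counted, so reads equal in both species could be lost.

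Kept barcodes had a mouse share of UMIs of at least 90%, no fewer than 500 genes, a mitochondrial share under 20% and no doublet call by Scrublet (scanpy 1.11.5, each library alone). A barcode present in 2 libraries was kept where it had more UMIs. A cell entered a class when its marker UMIs per 10000 passed a threshold (urothelial 50, stromal 60, endothelial 25, lymphatic 20, myeloid 50), set with the marker sums in view; cells passing for several classes were left out. Counts were summed per class and library and scaled to CPM, with exact Poisson intervals, and log2 ratios had 0.5 counts added. Shares used cells thinned to 2500 UMIs; for a count of 0 the limit is 3 counts of the total. Leiden clusters (leidenalg 0.10.2, 15 neighbours, 30 components) and the neighbour share were computed without the members. Free RNA was not removed. The counting rule was tested on simulated data. Bladder stroma was divided by the leading marker list, each list scaled by its mean over those cells; fixed divisors of 300, 200 and 25 for fibroblast, muscle and pericyte lists, used first without a recorded reason, were kept as an alternative. Positions come from GENCODE vM21 (mm10). Every member that reached 20 CPM in a class is named with its levels. The members and lists were chosen with earlier results of these data known.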

Additional observations from a re-analysis of the deposited data

Results flagged for a closer look

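The results here are those in which a ligand was higher in one class and lower in another under the same comparison of libraries. In each case the difference between classes was not tested, since there was 1 library per group. Cxcl16 at 7 days over bladder had a log2 ratio of 1.20 in myeloid and -2.10 in stromal cells. At 1 day over bladder it had 1.43 in endothelial, 3.44 in lymphatic (10 against 3 UMIs) and 1.24 in myeloid cells, with -2.26 in urothelial and -2.79 in stromal cells. Ccl2 at 7 days over 1 day had 1.55 in stromal and 1.29 in lymphatic cells, with -1.03 in endothelial cells; in assembloid-side endothelial cells the last ratio was -0.41, under 2-fold. Cx3cl1 at 7 days over bladder had 1.42 in stromal and -1.03 in endothelial cells. Cxcl14 at 7 days over bladder had 5.53 in myeloid and -1.51 in stromal cells, and at 1 day over bladder 5.20 and -2.36 in the same classes. The bladder stromal level of Cxcl14 was concentrated in cluster 17.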

How the results depend on the processing

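No paired analysis was possible because each group had 1 library. Of 487 alternative values of 69 called log2 ratios, 382 lay inside the counting interval, 100 moved beyond it and 5 reversed; of 134 alternative counts of members, 19 moved by more than 1.5 times. Keeping doublet calls or all shared barcodes moved none. Counted members at 7 days over 1 day were 2 in endothelial and 2 in myeloid cells with at least 1000 genes per cell. With a minimum of 5 CPM they were 5 in urothelium at 1 day over bladder and 4 in lymphatic cells at 7 days over 1 day. With 50 CPM they were 1 each in urothelial, stromal and endothelial cells at 7 days over 1 day, 1 in urothelium and 3 in lymphatic cells at 1 day over bladder. With the mean of per-cell CPM they were 7 in stromal, 4 in lymphatic and 7 in myeloid cells at 7 days over 1 day, and 1 in endothelial and 3 in lymphatic cells at 7 days over bladder. A stricter marker rule gave 1 in endothelium at 7 days over bladder.

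Leaving out bladder-near cells and both divisions of bladder stroma were chosen after seeing the data. Without the bladder-near 7-day cells the counts were 0 in urothelial, 0 in endothelial and 2 in myeloid cells at 7 days over 1 day, and 2 in urothelium at 7 days over bladder. The log2 ratios at 7 days over 1 day that reversed there were those of urothelial Cxcl10 (-0.15) and Cxcl16 (-0.093) and myeloid Cxcl2 (-0.11). With fibroblast-led bladder stroma only, 10 members were counted at 7 days and 9 at 1 day over bladder; fixed divisors gave the same counts, and of the levels by leading list only muscle-led Ccl7 (6.25 CPM, against 16.6 CPM) and Ccl8 (0 UMIs, against 2) moved by over 1.5 times. The other reversals were lymphatic Cxcl12 at 7 days over bladder (-0.55, mean of per-cell CPM) and myeloid Ccl5 at 7 days over bladder (-0.15, Leiden clusters as classes). The cause was not tested. Myeloid and lymphatic values rest on few cells.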

Other observations

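Of the receptors of these ligands, in lists of 19 chemokine receptors and 4 atypical receptors, 0 reached 20 CPM in urothelial cells of any library. In endothelium Cxcr4, the Cxcl12 receptor, was at 92.2 CPM at 7 days (137 CPM in assembloid-side cells), 61.9 CPM at 1 day and 11.0 CPM in bladder. Ackr1, an atypical receptor of venules that binds many inflammatory chemokines, was at 83.5 CPM at 7 days (23.0 CPM in assembloid-side cells), 6.44 CPM at 1 day and 193 CPM in bladder. Ackr3, which removes Cxcl12, was at 4.81 CPM at 7 days (3.12 CPM in assembloid-side cells), 1.08 CPM at 1 day and 63.8 CPM in bladder stroma, where 2 of the 2 atypical receptors that reached the minimum, Ackr3 and Ackr4, were lower at both times than in bladder.

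In myeloid cells Ccr2, the Ccl2 receptor of monocytes, was at 40.8 CPM at 7 days (1.63 CPM in assembloid-side cells), 0 UMIs at 1 day and 258 CPM in bladder. Cx3cr1, the Cx3cl1 receptor, was at 278 CPM at 7 days (301 CPM in assembloid-side cells), 342 CPM at 1 day and 191 CPM in bladder. Pf4, a platelet and macrophage chemokine outside the naming rule, was at 591 CPM at 7 days (555 CPM in assembloid-side cells), 589 CPM at 1 day and 1545 CPM in bladder.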
